A study of Mus musculus with 9 samples.

Results

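The AP-1 genes are the 8 genes Fos, Fosb, Fosl1, Fosl2, Jun, Junb, Jund and Atf3, and their chromatin accessibility in mouse embryonic fibroblasts (MEFs) is described here. They were listed by name, with no threshold on a measured value, from the 21938 protein-coding genes of the GENCODE M21 annotation on mm10. For each gene, peaks were collected within 1 kb of any of its annotated transcription start sites (TSSs), which is called its promoter, and within the gene body and 50 kb on either side, which is called its locus. Merged over all lists, 165 of 128522 accessible sites lay in the 8 loci, and 13 of these were at the genes' own promoters.

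AP-1 is a dimeric transcription factor of the basic leucine zipper (bZIP) class. JUN proteins pair with each other or with FOS proteins and bind the TPA response element (TRE), and ATF3, a stress-induced member, pairs with JUN proteins and also binds the cyclic AMP response element (CRE). Fos, Fosb, Jun, Junb and Atf3 are immediate early genes, whose transcription starts within minutes of serum, growth factors or stress, and AP-1 is known in fibroblasts as a factor that opens distal enhancers.

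The assay was ATAC-seq, which uses Tn5 transposase to cut and tag open chromatin. The 4 groups were primary WT MEFs (3 libraries), primary Anp32e null MEFs (3 libraries), Anp32e null MEFs given a non-targeting (NT) siRNA pool (1 library) and Anp32e null MEFs given a pool of siRNAs to the histone variant H2A.Z (2 libraries). ANP32E is the chaperone that takes H2A.Z off chromatin. Both transfected groups thus lacked ANP32E, no transfected WT group was analysed here, and it was not given in the sources used here whether the libraries of a group came from separate embryos.

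The authors deposited 1 peak list per group, which the labels tie to all libraries of that group, and per-replicate signal was not used here, so no test was made between lists. Every comparison below is therefore a description of these lists, set beside all coding genes or all sites. In bulk cells, a site open in more cells and a site more open in each cell cannot be told apart. The lists held 82567 to 108409 peaks on the assembled chromosomes, and their genome-wide background, which follows depth, was 8.85 fragments per position in WT, 5.12 in null, 3.88 with NT siRNA and 17.8 with H2A.Z siRNA. The deleted gene kept a TSS peak in each list, with 117, 125, 349 and 1522 fragments at its summit in the same order, so peaks do not check the deletion. All 10 fibroblast marker genes, among them Col1a1, Pdgfra, Thy1 and Twist1, had a promoter peak in every list. Promoters of other cell types had peaks too. Of 5 endothelial markers, 5 had one in WT, 4 in null and 5 after either siRNA, Tek and Kdr among the strong ones, and of 6 epithelial markers 4 had one in WT, 5 in null and 6 after either siRNA. Of 5 blood markers, 2 (Cd68 and Laptm5) had a peak in every list, 1 (Spi1) in the H2A.Z siRNA list alone and 2 (Ptprc and Tyrobp) in none. Of 5 pluripotency markers, 2 (Dppa3 and Esrrb) had one in every list, 1 (Pou5f1) in the H2A.Z siRNA list alone and 2 (Nanog and Zfp42) in none. Whether this bears on the AP-1 genes was not tested.

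The sequence just upstream of the TSS is shown for Fos, Jun and Atf3, the gene of each family on which the comparisons below mainly rest. It was taken from a set of RefSeq promoters on GRCm38.p6, in which 7 of the 8 genes were matched, all but Fosl1. The sequence is written 5′ to 3′ in the direction of transcription. Capitals mark the SP1 box GGGCGG or its complement, the TATA box TATAAA, the CRE core TGACGT and the CRE-like TGACNTCA. The Fos sequence is chr12:85473640-85473889 on the plus strand, the Jun sequence chr4:95052223-95052472 on the minus strand, and the Atf3 sequence chr1:191183341-191183583 on the minus strand.

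Fos: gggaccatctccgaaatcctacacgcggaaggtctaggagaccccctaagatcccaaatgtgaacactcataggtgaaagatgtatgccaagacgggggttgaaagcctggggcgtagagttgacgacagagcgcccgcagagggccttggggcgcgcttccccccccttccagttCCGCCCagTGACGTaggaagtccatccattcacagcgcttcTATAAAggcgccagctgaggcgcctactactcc

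Jun: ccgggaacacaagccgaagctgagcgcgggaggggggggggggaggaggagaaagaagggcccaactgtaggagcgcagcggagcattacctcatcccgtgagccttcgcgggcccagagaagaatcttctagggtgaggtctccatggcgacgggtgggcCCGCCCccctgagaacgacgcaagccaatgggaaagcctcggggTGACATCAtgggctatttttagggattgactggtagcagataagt

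Atf3: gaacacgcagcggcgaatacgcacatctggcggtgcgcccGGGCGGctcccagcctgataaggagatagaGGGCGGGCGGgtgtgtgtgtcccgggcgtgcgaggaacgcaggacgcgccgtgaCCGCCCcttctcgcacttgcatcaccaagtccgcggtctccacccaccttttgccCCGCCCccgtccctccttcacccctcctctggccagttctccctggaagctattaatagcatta

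Counted from the RefSeq TSS, with the first transcribed base as 1, Fos has an SP1 box at −74 to −69, the CRE core at −66 to −61 and a TATA box at −33 to −28. Jun has an SP1 box at −89 to −84 and the CRE-like TGACATCA at −45 to −38. Atf3 has 5 SP1 boxes, of which 2 overlap, and a CRE core at −8 to −3, which begins at the last base shown. Over 300 bp from 250 bp before to 50 bp after the TSS, SP1 boxes on either strand were found in 5 of 7 AP-1 promoters and in 35.7% of 32851 RefSeq promoters. TATAAA was found in 2 of 7 and in 13.6% of all. The CRE core was found in 2 of 7 and in 7.51% of all, and TGACNTCA, which includes the full CRE, in 1 of 7 and in 8.83% of all. The CRE core and TGACNTCA were searched for after these promoters had been read. The exact TRE TGANTCA, the exact CRE TGACGTCA and the serum response element (CArG box) were found in 0 of 7 windows, against 7.81%, 1.79% and 1.63% of all promoters. The RefSeq start of Jund lies upstream of its GENCODE TSS, so its window ends before the Jund peak, and that of Fosl2 lies downstream of its GENCODE TSS. Elements outside the windows were not counted, so 0 of 7 does not show that these genes lack them. In the sequence around peak summits, a CArG box was found at 1 of the 13 own promoter sites, against 0.926% of all promoter sites. It was at the Junb site 2173 bp into the gene. An exact CRE was found at 1 of 13, the Jund site, against 1.23%, and TGANTCA at 4 of 13, against 14.3%. These matches describe letters and not bound sites.

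Each of the 8 genes had a promoter peak in every list. Among all coding genes this held for 67.2% in WT, 66.7% in null, 66.8% with NT siRNA and 68.4% with H2A.Z siRNA. The 8 promoters held 13 merged sites, with 3 at Junb, 2 each at Fosb, Fosl2 and Atf3 and 1 at each of the others, and all 13 were called in all 4 lists. Differences between lists at AP-1 promoters were therefore differences in strength and width, not in presence. Strength is given as the fold of the authors' peak caller, the fragment pileup at the summit over the local background, turned into a percentile among all peaks of the same list. Where a promoter held more than 1 peak, the peak of highest fold stood for the gene. Brackets give the 95% interval that the count of fragments at the summit allows, with the background held fixed. These intervals cover counting error only.

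The Jun gene had the widest promoter peak of the 8 in each list. Jun (ENSMUSG00000052684.4, chromosome 4, 95049034 to 95052222, minus strand) encodes the main partner of FOS proteins and is a single-exon gene. Its peak covered the whole TSS region and spanned 3547 bp in WT, 3279 bp in null, 2894 bp with NT siRNA and 3749 bp with H2A.Z siRNA. The median coding promoter peak was 1083 to 1294.5 bp wide, so the Jun peak was wider than that median in each list. Its percentile of fold was 69.8 in WT (65.4 to 74.2), 64.5 in null (59.4 to 69.2), 43.8 after NT siRNA (39.6 to 48.4) and 52.8 after H2A.Z siRNA (51.1 to 54.6). Both siRNA lists were below both untransfected lists, with no overlap of the intervals. At the summit, 39 to 45 bp into its 5′ UTR, stood 429, 414, 591 and 2428 fragments, which is 98.8 to 99.4 as a percentile of pileup. Jun was thus among the most covered sites of each list while its fold was near the middle.

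Junb (ENSMUSG00000052837.6, chromosome 8, 84974484 to 84978718, minus strand), a JUN protein that is itself induced early and is often a weaker activator than JUN, had 3 sites. They lay 2173 bp into the gene, at the TSS and 1149 bp before it. The TSS site was the weakest of the 3 in each list, at percentiles of 27.2, 16.1, 15.6 and 27.9 in WT, null, NT siRNA and H2A.Z siRNA. The downstream site stood at 45.8, 34.9, 27.1 and 41.9, and the upstream site at 50.7, 37.7, 16.05 and 32.7. The upstream site led in WT and null and the downstream site in both siRNA lists, so the peak that stood for Junb was not the same site throughout.

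Jund (ENSMUSG00000071076.6, chromosome 8, 70698949 to 70700616, plus strand), the JUN gene that is expressed without stimulation, had 1 site of 1663 to 1746 bp. Its percentile of fold was 67.3 in WT (59.8 to 73.6), 58.3 in null (48.4 to 66.7), 55.9 after NT siRNA (51.3 to 60.7) and 63.9 after H2A.Z siRNA (61.9 to 65.8). The intervals of null and NT siRNA overlapped. In the 100 bp on either side of its summit an exact CRE was found, which 1.23% of all promoter sites had.

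Among the FOS genes, whose proteins act by pairing with JUN proteins, Fos (ENSMUSG00000021250.13, chromosome 12, 85473890 to 85477273, plus strand) had 1 site with its summit 4 to 7 bp before the TSS. Its percentile was 70.8 in WT (62.9 to 77.7), 68.9 in null (60.01 to 76.7), 48.5 after NT siRNA (43.4 to 53.5) and 70.7 after H2A.Z siRNA (68.5 to 72.8). The NT siRNA list stood apart from the other 3, which overlapped each other. The summit pileup was 154, 145, 413 and 1597 fragments, or 17.4, 28.3, 106 and 89.6 times the genome-wide background of the list. By pileup, then, the untransfected lists were low and both siRNA lists high, which was not the order given by fold.

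Fosb (ENSMUSG00000003545.3, chromosome 7, 19302696 to 19310051, minus strand), which encodes FOSB and its short form ΔFOSB, had a strong site inside the gene near a downstream TSS and a weak one at its first TSS. The inner site, with its summit 1390 to 1468 bp into the gene, was at percentiles of 83.1 (77.9 to 88.0), 80.2 (73.1 to 86.6), 62.1 (56.999 to 67.0) and 77.5 (75.4 to 79.5) in WT, null, NT siRNA and H2A.Z siRNA. The TSS site was at 35.9, 6.10, 16.9 and 37.2, with 88, 48, 159 and 622 fragments. From WT to null it changed by −29.8 points, the largest loss among the 92 locus sites that all lists called, with intervals of 18.6 to 50.4 in WT and 0.183 to 23.1 in null that overlapped.

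Fosl1 (ENSMUSG00000024912.6, chromosome 19, 5447547 to 5455946, plus strand) encodes FRA-1, an AP-1 subunit of motile and transformed cells, and was the weakest promoter of the 8 in WT, NT siRNA and H2A.Z siRNA. Its percentile was 46.1 (30.01 to 59.6), 37.7 (20.6 to 52.1), 24.1 (16.8 to 31.1) and 34.3 (31.4 to 37.3) in the same order. The WT list split the site into peaks of 605 and 576 bp, whereas the other lists called 1 peak of 1473, 1538 and 1574 bp. Fosl2 (ENSMUSG00000029135.10, chromosome 5, 32135801 to 32157842, plus strand), which encodes FRA-2, had a TSS site at percentiles of 69.2 (62.7 to 75.3), 60.9 (52.2 to 68.2), 54.4 (50.1 to 58.4) and 61.0 (59.4 to 62.6). Its second promoter site, in an intron with summits 10565 to 10986 bp downstream, was weak throughout at 5.10, 26.4, 8.09 and 25.3. By pileup, the Fosl2 TSS site was among the most covered of the siRNA lists, at percentiles of 99.4 and 99.8.

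Atf3 (ENSMUSG00000026628.13, chromosome 1, 191170296 to 191218039, minus strand) has a main TSS and an upstream TSS, whose peak had its summit at −32991 bp from the main TSS in WT. The upstream site was the strongest of the 13, at percentiles of 94.9 in WT, 91.9 in null, 91.2 with NT siRNA and 88.0 with H2A.Z siRNA. The main TSS site was at 73.6, 74.3, 51.4 and 67.8, and it showed the same dip after NT siRNA as Fos. In the NT siRNA list the upstream peak ended just short of the 1-kb window, so the main TSS peak stood for Atf3 in that list alone. Its percentile by the window rule of 94.9, 91.9, 51.4 and 88.0 therefore mixes both sites, and the values by site are the ones to compare.

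**Figure D1:**
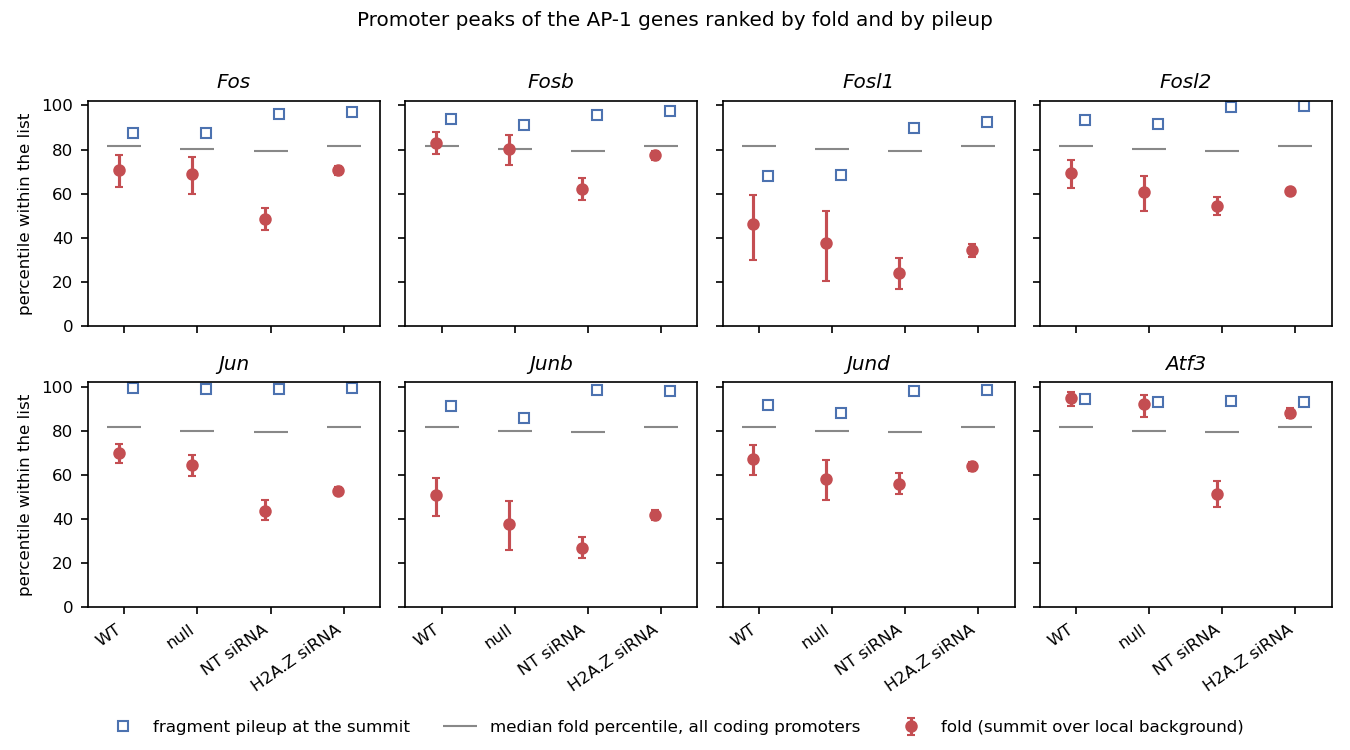
Percentile within each list (y axis, 0 to 100) of the promoter peak of each gene in the WT, null, NT siRNA and H2A.Z siRNA lists (x axis). Filled circles rank peaks by fold with the 95% counting interval, open squares rank the same peaks by fragment pileup at the summit, and grey bars give the median fold percentile of all coding promoters. The circles are lowest after NT siRNA in each panel, whereas the squares of 6 genes are higher in both siRNA lists than in WT and null, all but those of Jun and Atf3. Different sites stand for Atf3 after NT siRNA than in its other lists, and for Junb in WT and null than in both siRNA lists.

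As a group, AP-1 promoters ranked below the typical coding promoter. The median of the 8 was 69.5 in WT, 62.7 in null, 49.95 with NT siRNA and 62.5 with H2A.Z siRNA, compared with 81.7, 80.05, 79.5 and 81.5 over all coding genes with a peak. By pileup they ranked above it, with medians of 92.3, 89.6, 96.9 and 97.5 against 86.3, 85.6, 88.4 and 89.7. Their median width was 1330.5 bp, 1380.5 bp, 1516 bp and 1655.5 bp, against 1149 bp, 1116 bp, 1083 bp and 1294.5 bp over all.

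To see how AP-1 promoters differed upon ANP32E loss, percentiles in null and WT were compared. All 8 ranked lower in null, with changes of −1.84 points at Fos to −12.98 at Junb and a median change of −6.78 points against −1.36 over 14317 coding promoters. Junb alone passed 10 points in this direction, 1 of 8, as did 11.1% of all coding promoters, and 0 of 8 ranked higher by 10 points, as did 6.52% of all. The 95% counting intervals of WT and null overlapped at each of the 8 genes. They were apart, with null lower, at 2.91% of all coding promoters. The 10 fibroblast markers had a median change of −6.92 points in the same comparison, with 3 lower and 1 higher by 10 points, so the AP-1 median was near theirs. By pileup the changes were smaller, from −5.41 to 0.255 points for the same peaks. In units of genome-wide background, the summit pileup was higher in null at each of the 8 genes, with log2 ratios of 0.291 to 0.738. Their median was 0.574 against 0.646 over all coding promoters. A lower rank within the list was therefore not a lower pileup over background.

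NT siRNA was compared with the untransfected null cells, both lists being from Anp32e null MEFs. All 8 promoters ranked lower after NT siRNA, with a median change of −15.9 points against −0.52 over 14219 coding promoters. Past 10 points were 6 of 8, namely Fos, Fosb, Fosl1, Jun, Junb and Atf3, as were 12.3% of all coding promoters, and none ranked higher by 10 points, as did 13.5%. Fos changed by −20.4, Jun by −20.7 and Fosb by −18.1 points. The count of 6 includes Atf3, at −40.6 points, and Junb, at −10.6, which both compare different sites. With the leading site of each gene held fixed, 4 of 8 were past 10 points (Fos, Fosb, Fosl1 and Jun) and the median of the 8 was −10.7 points. Atf3 changed by −0.75 points at its upstream site and by −22.9 at its main TSS, and Junb by −21.6 at its upstream site and −7.87 at its downstream site. The intervals were apart at 4 of 8 genes, as they were at 6.32% of all coding promoters. These were Fos, Fosb and Jun, and Atf3 by the change of site. When the same peaks were ranked by pileup, the direction was the opposite, with a median of 8.28 points. Jun was lower by pileup, at −0.138 points, and so was Atf3 at each of its sites held fixed, at −3.39 and −0.115, and the other 6 were higher. Ranked by −log10 p, with the peak of highest −log10 p standing for each gene, the median was 9.11 points, with 6 of 8 higher and all coding promoters at 1.54. The statement that AP-1 promoters ranked lower after NT siRNA thus holds for fold alone. This list came from 1 library. Of the 10 fibroblast markers, 4 ranked lower and 1 higher by 10 points in the same comparison, and of 5 epithelial markers with a peak in both lists 0 ranked lower and 3 higher. Their part in the AP-1 result was not tested.

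H2A.Z siRNA was compared with NT siRNA to follow AP-1 promoters when H2A.Z was depleted. This comparison shares the NT siRNA list with the last one, so a low value in that list moves both. All 8 ranked higher after H2A.Z siRNA, with a median change of 12.5 points against 2.08 over 14559 coding promoters. Past 10 points were 5 of 8, namely Fos, Fosb, Fosl1, Junb and Atf3, as were 14.1% of all, and none ranked lower by 10 points, as did 2.56%. The intervals were apart at each of the 8 genes, as they were at 12.6% of all coding promoters. The fibroblast markers had a median change of 9.45 points here, with 2 higher and 0 lower by 10 points. Atf3 enters the AP-1 counts through the change of site, and at its upstream site held fixed it ranked lower, so 7 of 8 were higher at their leading site, 4 of them past 10 points. The H2A.Z siRNA list was longer, and percentiles depend on length. With all lists shortened to 1 length the median change was 1.39 points, 5 of 8 were higher, and all coding promoters had a median of −0.96. With the same site in every list it was 9.61 points, and by pileup, with the peak of highest pileup standing for each gene, it was 0.81 points, below the 1.14 of all coding promoters. In units of genome-wide background, the summit pileup was lower at each of the 8 genes, with log2 ratios of −0.478 to −0.0848. Their median was −0.187 against −0.309 over all coding promoters, so a higher rank here was not a higher pileup over background. With its sites held fixed, Atf3 was at 1.05 times the NT siRNA value at its main TSS and at 0.783 upstream. By site, Fos changed by 22.2 points, from 48.5 to 70.7, and Atf3 by 16.4 points at its main TSS and by −3.17 at its upstream one.

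**Figure D2:**
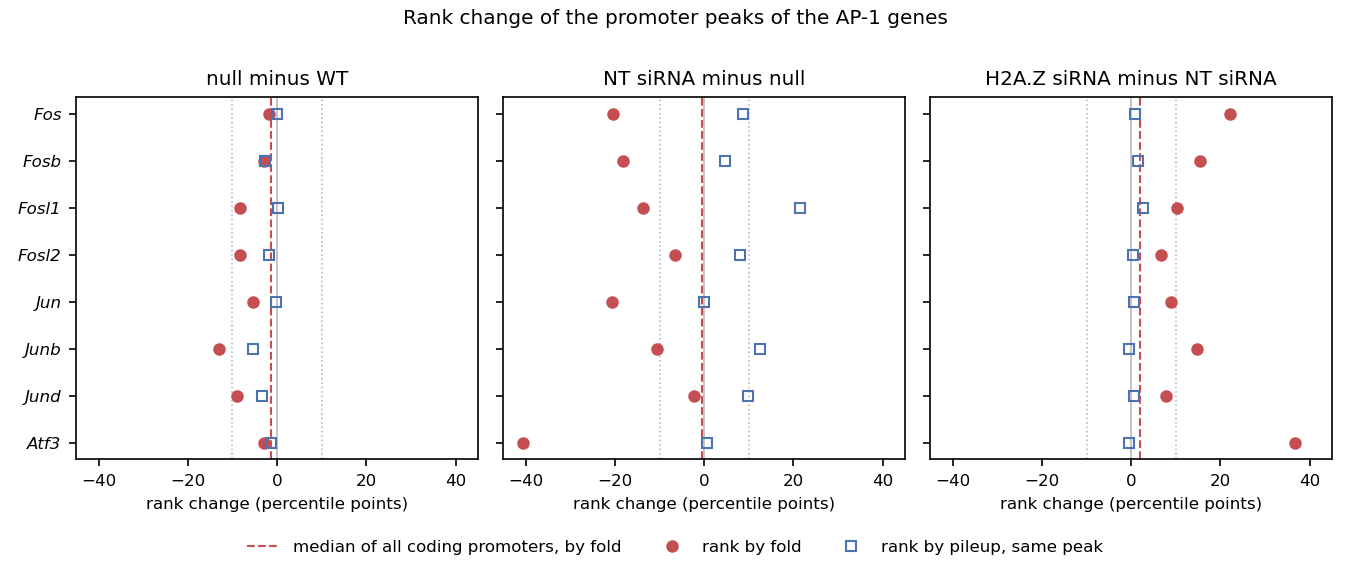
Rank change in percentile points (x axis) of the promoter peak of each gene (y axis) for null minus WT, NT siRNA minus null and H2A.Z siRNA minus NT siRNA. Filled circles are changes of the rank by fold, open squares of the rank of the same peaks by pileup, dashed lines give the median of all coding promoters by fold and dotted lines mark 10 points. In the middle panel all circles lie left of 0, and the squares of 6 genes lie right of it beside that of Atf3. The points of Atf3 in the middle and right panels and of Junb in the middle panel compare different sites.

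Fold and pileup gave opposite orders for NT siRNA against null, and fold divides a summit by the larger of the genome-wide and the local background. The recovered local background was divided by that of the genome and followed at the same 13 sites in each list. Its median was 3.78 times the genome-wide value in WT, 4.61 in null, 15.3 with NT siRNA and 14.9 with H2A.Z siRNA, compared with 1.94, 2.41, 4.43 and 4.14 over 15749 coding promoter sites called in all 4 lists. The neighbourhood of AP-1 promoters thus held several times more fragments than the genome at large, and more so in the siRNA lists than in WT and null.

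From null to NT siRNA the local background at the 13 sites was 1.67 to 5.24 times higher, with a median of 3.51 and all 13 above the median of 1.61 of all coding promoter sites. Nearby sites have nearly the same background, 28.8 to 29.9 at the 3 Junb sites with NT siRNA, so the 13 values are not independent. Fosl1 had a ratio of 5.24, the 3 Junb sites 5.00 to 5.14, Fos 4.24 and Fosl2 4.14 at its TSS. Of all coding promoter sites, 99.9% had a lower ratio than Fosl1, 99.8% or more a lower one than each Junb site, and 99.2% a lower one than Fos. Jun, which already had the highest local background of the 13 in WT and null, had a ratio of 2.06, and the Atf3 sites had 1.78 and 1.67. The summit pileup, in units of genome-wide background, was 1.52 to 5.93 times higher at the same sites, with a median of 4.202 against 2.11 over all. At Fos the summit was 3.75 times and its surroundings 4.24 times higher, and in such a case fold is lower although the pileup is higher.

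From NT siRNA to H2A.Z siRNA the local background was lower at Fos, at 0.671 of the NT siRNA value, and at the 3 Junb sites, at 0.745 to 0.764. The median over the 13 sites was 0.923 against 0.956 over all coding promoter sites, of which 0.495% had a lower ratio than Fos. From WT to null it was 0.953 to 1.43, with a median of 1.22 against 1.25 over all. The wide shift at AP-1 promoters was therefore between the lists of untransfected and of transfected cells. It moved with transfection and, for NT siRNA, with a single library. As deposited, each siRNA list also held 0 mitochondrial and 0 scaffold peaks, against 5 and 81 in WT and 6 and 67 in null. Transfection, library and any difference in how the lists were made cannot be told apart here.

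**Figure D3:**
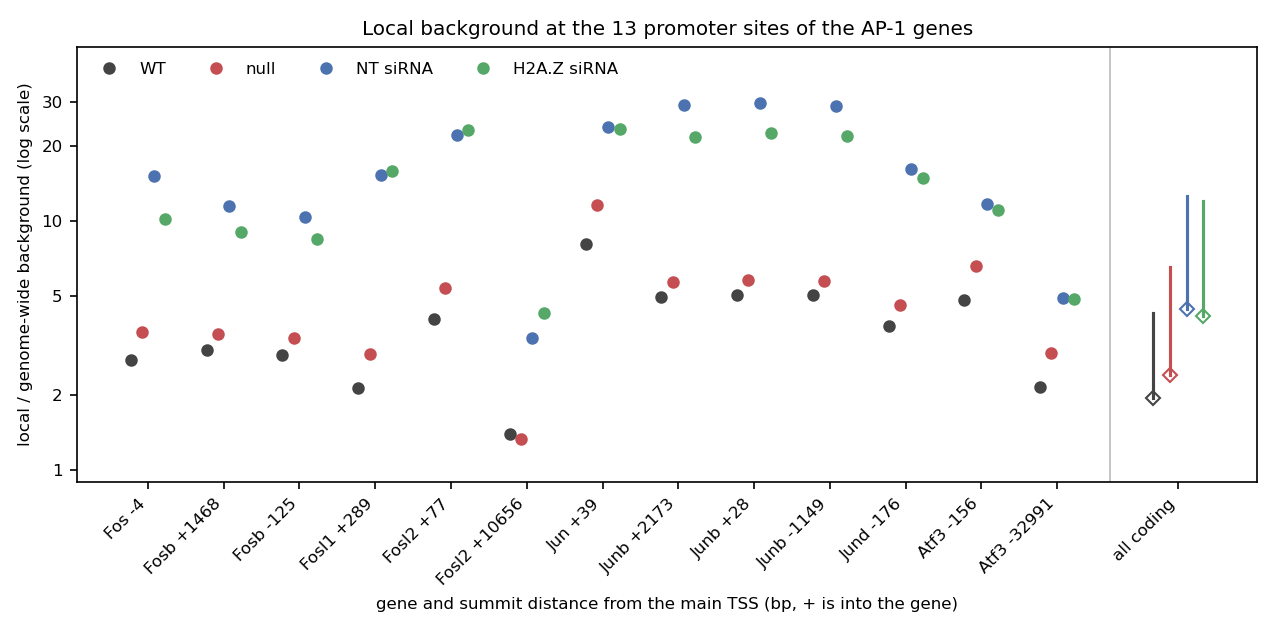
Local background at the 13 promoter sites divided by the genome-wide background of the list (y axis, log scale) for the 4 lists (colours). Sites are named by gene and by the distance of the summit from the main TSS (x axis). Diamonds at the right give the median of all 15749 coding promoter sites, and lines reach up to their 95th percentile. The NT siRNA value is above that 95th percentile of 12.6 at 8 of the 13 sites and reaches 29.9 at Junb, and the WT values lie between 1.40 and 8.06.

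The loci were rich in accessible sites. They held 110 peaks in WT, 109 in null, 139 with NT siRNA and 161 with H2A.Z siRNA, a median of 12.6, 12.7, 16.1 and 18.2 peaks per 100 kb, whereas the median window of all coding genes held 5.38, 5.19, 5.87 and 7.28. Fosb had the most of the 8 in WT, with 15.8 peaks per 100 kb, more than in 99.3% of all coding windows, and Junb had the most after H2A.Z siRNA with 24.9. Of the 165 merged sites, 13 were the genes' own promoters, 51 were promoters of neighbours and 101 were distal. The loci of Fosb, Fosl1 and Junb lie among many genes, with 7, 11 and 9 other coding genes in the window, and those of Fos, Fosl2 and Jun hold no other coding gene.

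Of the 165 sites, 92 were called in all 4 lists, 55.8% (Wilson interval 48.1 to 63.1%), against 45.9% of all sites. Own promoters account for 13 of these. Of the 101 distal sites 41 were, 40.6% against 40.1% of all distal sites. Sites called in null and not in WT numbered 13, or 7.88%, against 10.9% of all sites, and 14 were called in WT and not in null, 8.48% against 12.3%. The Wilson intervals, 4.66 to 13.01% and 5.12 to 13.7%, include the shares of all sites. Ranked by percentile in null, the leading sites called in null and not in WT lay 10.6 kb downstream of the main Atf3 TSS in an intron of the gene, at 35.97, at a Junos promoter 40.5 kb upstream of Jun, at 32.3, and 75.5 kb upstream of the main Atf3 TSS, at 29.4. Of the 13 such sites, 12 were called in both siRNA lists. Ranked by percentile in WT, the leading sites called in WT and not in null lay 51.7 kb downstream of Jun, at 43.4, 56.4 kb upstream of the main Atf3 TSS, at 29.3, and 14.1 kb downstream of Jun, at 27.4. Of these 14, 9 were called in both siRNA lists, 3 after H2A.Z siRNA and not NT siRNA, and 2 in WT alone.

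After NT siRNA 28 sites were called that were not called in null, 16.97% against 14.9% of all sites, and 1 was called in null alone of these lists, 0.606% (0.107 to 3.35%) against 10.1%. With all lists shortened to 1 length these counts were 20 and 7, and the shares of all sites at that length were not computed. At distal sites alone the first count was 24 of 101, 23.8% against 16.4% of all distal sites. The site called in null, at Fosl1, lies 32.9 kb downstream at a promoter of Efemp2. Sites in both siRNA lists and in neither untransfected list numbered 17, or 10.3% against 8.99%. They lay at each locus but Fosb, with 4 each at Fosl2 and Jund, 3 at Junb, 2 each at Fos and Atf3 and 1 each at Fosl1 and Jun. The strongest by mean percentile was at Fosl2, 41.3 kb downstream of its TSS, at 52.3 with NT siRNA and 70.1 with H2A.Z siRNA.

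After H2A.Z siRNA 31 sites were called that were not called after NT siRNA, 18.8% against 20.7% of all, of which 27 were in that list alone, 16.4% against 13.9%. At distal sites these shares were 24.8% against 22.7% and 22.8% against 15.1% of all distal sites. With the lists scaled to the genome-wide background of the NT siRNA list, 16 were left. With all lists shortened to 1 length the class held 4 sites and its reverse 8, so the balance between the lists at these loci depended on their length. The shares of all sites under these settings were not computed, so whether this is particular to the AP-1 loci was not tested. The leading ones of the 31 by percentile lay 35.3 kb downstream of Jund, at 38.9, 11.2 kb downstream of Jun, at 32.9, and 18.4 kb downstream of Fos, at 22.8. The reverse class held 2 sites, 1.21% against 3.65%, both at Fos. It held 6 sites with matched genome-wide background and 0 when peaks had to reach a −log10 q of 5. One, in a coding exon of Fos 2396 bp downstream of its TSS (chr12:85476071-85476397), was among the weakest peaks of the NT siRNA list by fold, at a percentile of 0.0179, although it had 101 fragments, 26.0 times the genome-wide background. Its local background was 16.05 times that of the genome. The other lay 26.8 kb upstream of Fos, at 12.2. The peak over the body of Fos thus stood on the same high local background as the promoter.

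**Figure D4:**
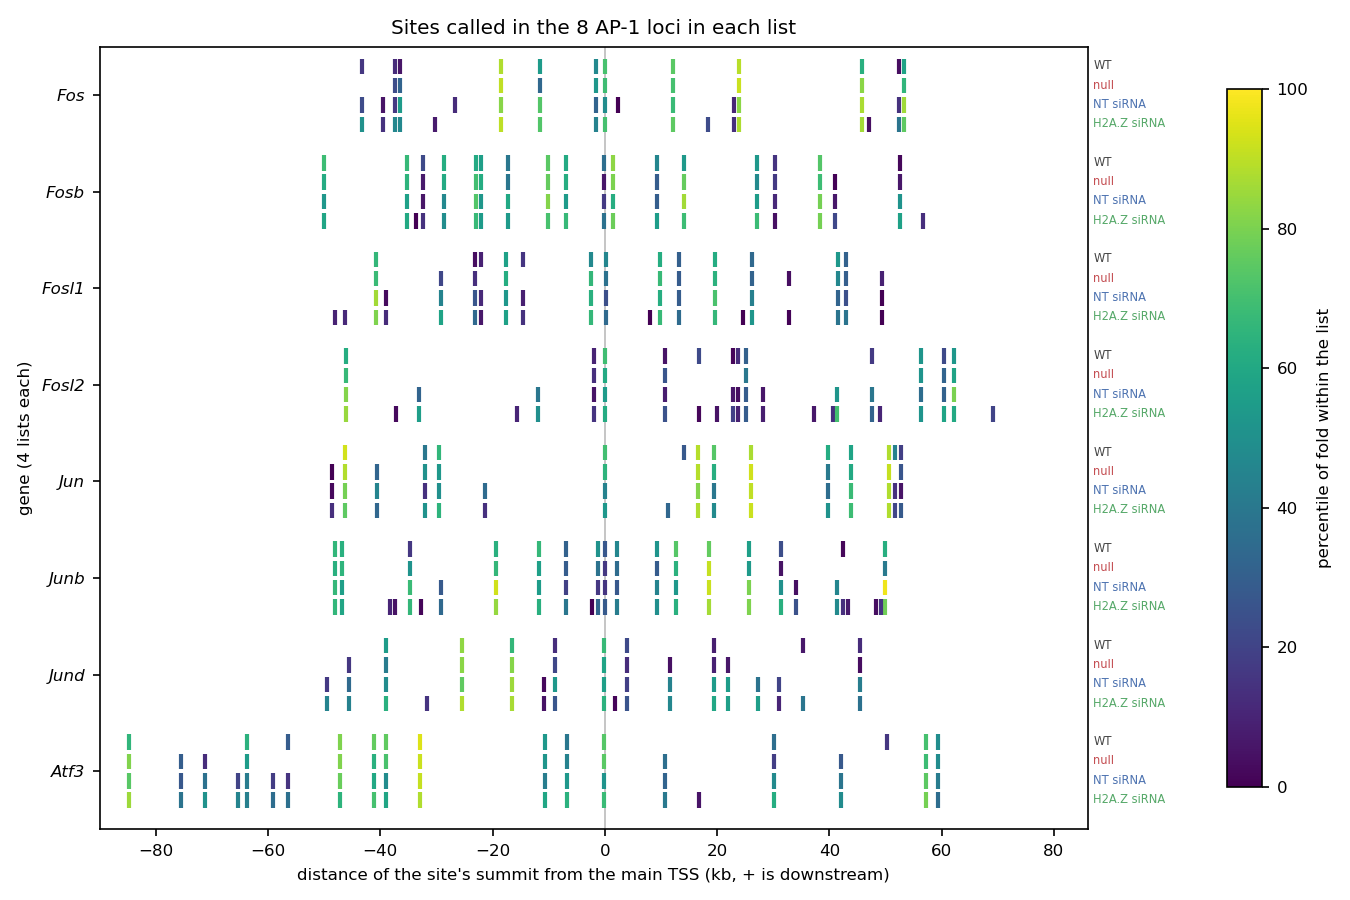
Sites called in the 8 loci, by the distance of the summit from the main TSS in kb (x axis, positive downstream), with 1 line per list (WT, null, NT siRNA, H2A.Z siRNA from top to bottom) for each gene. Colour gives the percentile of fold within the list. Of the 165 sites, 92 appear on all 4 lines, and the sites that appear on the lower 2 lines alone, 17 in all, are most numerous at Fosl2 and Jund with 4 each.

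Sites called in fewer than 4 lists were weaker in the median. Distal sites called in all 4 lists had median percentiles of 58.4, 60.6, 60.02 and 64.6 in WT, null, NT siRNA and H2A.Z siRNA, and the other distal sites 15.7, 14.3, 17.1 and 14.4, with the highest of these at 43.4, 35.97, 54.8 and 70.1. The widths were 661, 629, 670 and 813 bp for the former and 366, 288.5, 439.5 and 608 bp for the latter.

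At Fos and Jun the strongest distal sites stood high in every list. At Fos, an intergenic site 23.9 kb downstream (chr12:85497407-85498293) was at percentiles of 89.1, 92.1, 82.8 and 87.5 in WT, null, NT siRNA and H2A.Z siRNA. A second Fos site, 18.4 kb upstream, was at 88.0, 90.3, 82.2 and 90.1, so both outranked the Fos promoter in every list. At Jun, a site 26.1 kb downstream in an intron of Gm12694 (chr4:95025568-95026646) was at 87.4, 92.6, 90.3 and 92.1. The Jun locus held further sites of this strength at 16.6 kb, with 88.7, 88.9, 81.3 and 88.2, and at 50.6 kb, with 88.1, 91.1, 88.1 and 88.0. All 3 were at 81.3 or above in each list, whereas the Jun promoter was at 43.8 after NT siRNA.

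At Junb the strongest distal site lay in a coding exon of Rnaseh2a 18.6 kb downstream, at 76.0, 91.1, 92.0 and 86.4, and at Jund in intergenic sequence 16.6 kb upstream, at 66.2, 81.7, 85.3 and 86.9. Both were lowest in WT. The Fosl2 site 46.1 kb upstream was also lowest in WT and highest after H2A.Z siRNA, at 61.8, 66.9, 81.5 and 84.6. At Atf3 an intergenic site 47.2 kb upstream was lowest after H2A.Z siRNA, at 80.7, 81.1, 77.0 and 64.8. The Fosl1 site 2.4 kb upstream was at 47.2, 66.2, 63.4 and 66.6, and the Fosb site 10.1 kb upstream, in an exon of D830036C21Rik, at 74.2, 76.4, 81.6 and 71.0.

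Across the 92 shared sites of the loci, the median rank change was −0.68 points from WT to null, −2.80 from null to NT siRNA and 6.27 from NT to H2A.Z siRNA, against −0.44, 0.0385 and 4.37 over 59011 shared sites of the genome. The last 2 share the NT siRNA list. Under ranking by pileup the second was 11.3 points, and with lists of the same length the third was −3.01. The first was 1.79 when peaks had to reach a −log10 q of 5 and 11.6 in the top 20000 peaks, over 6 sites, so the direction of each depended on the processing. From WT to null the largest gains were 35.3 points or less and lay at neighbours' sites, namely the Best2 promoter 34.7 kb from Junb (16.1 to 51.4) and a Gm40477 promoter 36.5 kb from Fos (5.80 to 32.0), and at a distal site over Rtn2 14.1 kb from Fosb (53.8 to 76.4). Their summits held few fragments in WT and null, with 33 and 36, 25 and 28, and 56 and 58 in the same order. After the Fosb TSS site, the largest losses were at the Rnaseh2a and Prdx2 promoter near Junb (51.7 to 28.7) and at a Mast1 promoter (62.8 to 40.8). The summits of these 2 held 101 and 60, and 52 and 27 fragments. No counting intervals are given for these gains and losses. From NT to H2A.Z siRNA, the site that gained most lay 32.0 kb upstream of Jun in an intron of the antisense gene Junos (13.8 to 51.1). A Gm40477 promoter near Fos (16.8 to 46.2) and a site 60.4 kb downstream of the Fosl2 TSS (30.9 to 58.3) came next. The largest losses were 8.8 kb upstream of Jund (53.3 to 26.8), 62.1 kb downstream of Fosl2 (79.9 to 60.4) and at the same Mast1 promoter (97.3 to 78.1).

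The TRE was read in the 100 bp on either side of summits, since the loci encode the proteins that bind it. TGANTCA was searched on either strand with any base at N, so TGAATCA and TGATTCA count as well. A match was found at 31 of 101 distal sites of the loci, 30.7% against 33.4% of all distal sites. Of the 41 called in all lists 18 had one, 43.9% against 40.7%. TGANTCA was found at 4 of 13 own promoter sites, 30.8% against 14.3% of all promoter sites. At distal sites its share was therefore near that of the genome. By locus it ranged from 1 of 9 at Fosl1 to 8 of 15 at Atf3, with 6 of 14 at Jun and 3 of 16 at Fos. The upstream Atf3 promoter also had one. TRE windows of 4 loci are shown, each from the strongest distal site of the locus that all lists called and that held a TRE, in plus-strand orientation on GRCm38 with the TRE in capitals. They are at chr12:85519708-85519748 for Fos, chr4:95001571-95001611 for Jun, chr5:32089701-32089741 for Fosl2 and chr1:191222171-191222211 for Atf3.

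Fos +45.8 kb: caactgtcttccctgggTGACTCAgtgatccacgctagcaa

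Jun +50.6 kb: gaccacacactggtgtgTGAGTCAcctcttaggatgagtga

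Fosl2 −46.1 kb: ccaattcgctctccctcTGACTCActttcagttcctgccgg

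Atf3 −38.9 kb: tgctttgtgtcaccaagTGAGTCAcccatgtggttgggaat

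TGACTCA in the Fos and Fosl2 windows and TGAGTCA in the Jun and Atf3 windows are the same element read on opposite strands. The Fos site was at percentiles of 62.9, 82.4, 87.3 and 86.2 in WT, null, NT siRNA and H2A.Z siRNA and thus lowest in WT. The Atf3 site was at 75.7, 71.2, 48.3 and 58.7, highest in WT and lowest after NT siRNA. The strongest distal sites of Fos and Jun, by contrast, are shown because they carry no TRE, CRE or CArG box in the 81 bp around the summit. They are chr12:85497742-85497822 and chr4:95026064-95026144.

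Fos +23.9 kb: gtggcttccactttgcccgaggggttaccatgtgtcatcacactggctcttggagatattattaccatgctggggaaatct

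Jun +26.1 kb: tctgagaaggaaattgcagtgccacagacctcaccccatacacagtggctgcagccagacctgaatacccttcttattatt

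Genes that work with AP-1 were described from 3 further lists of promoters. Of 20 bZIP partners, 19 had a promoter peak in each list, Batf being without one. From null to NT siRNA 3 of 19 ranked lower by 10 points (Atf4 at −20.9, Atf5 at −14.8 and Atf1 at −12.6) and 0 higher, against 12.3% and 13.5% of all coding promoters, with a median of −6.30 points. Of 16 immediate early genes and serum response regulators, all 16 had a peak in each list, 5 ranked lower and 3 higher, with a median of −3.84 points. Egr1, an immediate early zinc finger gene, changed by −32.1 points, from 59.1 to 27.0, while its local background went from 6.31 to 44.97 times the genome-wide value. Srf, the factor that binds the CArG box, changed by −12.9 points. Egr3, in contrast, went from 0.711 to 59.7. The 10 MAP kinase genes, which act upstream of AP-1, had a median of 3.08 points, 1 higher, Mapk3, and 0 lower. From WT to null 1 of 19, 3 of 16 and 0 of 10 ranked lower by 10 points, against 11.1% of all coding promoters, and 0 of each list higher, against 6.52%. From NT to H2A.Z siRNA 2 of 19, 2 of 16 and 0 of 10 ranked higher, against 14.1% of all, and 0 of each lower, against 2.56%. The immediate early genes were therefore mixed, and not all of them followed Fos and Jun.

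The promoters most like Fos over the 4 lists, among 13986 coding genes with a peak in each, were Fbxo6, Gm9767 and Tmem200a, with a largest difference of 1.87 to 2.20 points in any list, the last 2 sharing the same peaks. Those most like Jun were Fam189a1, Tnks1bp1 and S100a4, within 2.36 to 2.48 points. For Atf3 the percentiles by the window rule mix both of its sites, so no likeness is given. Likeness over 4 values is a description of percentiles and of nothing else.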

How the data were processed

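The 9 ATAC-seq libraries were analysed as the 4 peak lists that the authors deposited, 1 per group. Per the methods, reads were aligned to mm10 with Bowtie2, duplicates were removed with Picard and MACS2 called peaks in paired-end mode. That the libraries of a group were merged for this step was inferred from the labels and peak names, which give 1 list per group. Fragment ends were piled up as whole fragments, so a Tn5 shift moves edges by a few bases. The deposited fold is a ratio of pileup to background, each with a pseudocount of 1. The authors' p-value and q-value columns are −log10 values, and the last deposited column is the summit's offset in bp. Peaks on chromosomes 1 to 19, X and Y were kept.

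The AP-1 members and all gene lists were chosen with earlier results of these data known. Pileup and local background were recovered from fold and −log10 p under the Poisson model. All pileups came out within 0.05 of a whole number, and the method was tested on simulated data. Genome-wide background is the most frequent recovered value. Peaks that overlapped or touched were merged into sites, the highest-ranked peak standing for a site in each list. A rank change was called at 10 percentile points. Genes named are the 8 members, the strongest distal site per locus, the 3 largest gains and losses, the 3 sites of highest percentile in each class of sites called in 1 list and not another, and the 3 coding promoters nearest in percentile to Fos and Jun, those for Atf3 being left out because its window values mix sites. For WT against null, that percentile was taken in the list that called the site, a reading chosen after the data were seen. Pathway list members, the second Fos and further Jun distal sites and the strongest site of both siRNA lists alone were picked for naming after their values were seen. Motifs were searched on both strands of GRCm38. Python 3.11.15, NumPy 2.4.6, SciPy 1.17.1, pandas 2.3.3 and matplotlib 3.10.9 were used. Alternatives were a −log10 q of 5 or more, lists of equal length, the top 20000 peaks, matched genome-wide background and 500 bp promoters. Others were coding transcripts, summits in the window, the nearest summit, ranking by −log10 p, loci of 20 kb and 100 kb and merging across 150 bp. Matching scaled pileup and background to the genome-wide background of the NT siRNA list, and no fragments were drawn. The coding-transcript setting selected on gene type, left out no TSS of the 8 genes and repeated the main run. Ranking by pileup and holding 1 promoter site throughout were added after the data were seen.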

Additional observations from a re-analysis of the deposited data

How the results depend on the processing

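No paired analysis was possible because the 4 pooled lists hold no replicates, and leaving out each replicate could not be run for the same reason. Medians are compared with the SD over the members and counts with a 1.5-fold range. Of 180 values for the main results, 121 stayed inside, 50 moved and 9 changed sign. Of 261 promoter percentiles, 151 stayed inside their counting interval, 60 were higher and 50 lower. Both totals include the coding-transcript setting, which repeated the main run, so its values stayed inside by construction. The 8 of 8 promoter peaks and the widths stayed under each alternative in which they were computed but the top 20000. Widths were not computed with matched genome-wide background. The cause of other changes was not tested. Depth limits the weak sites, since the background ran from 3.88 to 17.8 fragments and a site missing from a list was below its threshold, which does not show it closed.

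At a −log10 q of 5 or more, the sites called in WT and not in null were 8, those in null and not after NT siRNA 0 and those after NT but not H2A.Z siRNA 0, and the median change at shared locus sites from WT to null was 1.79. With the same number of peaks, the promoter median from NT to H2A.Z siRNA was 1.39, that at shared sites −3.01, and the sites called were 7 in null and not after NT siRNA, 4 after H2A.Z and not NT siRNA and 8 after NT and not H2A.Z siRNA. With matched genome-wide background the last 2 were 16 and 6. Ranked by −log10 p, the promoter medians were −2.23 from WT to null and 9.11 from null to NT siRNA, and the latter was 11.4 at shared sites. Ranked by pileup, the promoter medians were −0.976, 8.28 and 0.81 in the order of the comparisons, and 11.3 at shared sites from null to NT siRNA.

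By construction, smaller lists and windows gave fewer sites. In the top 20000, promoter peaks were left at 2 genes in WT, 2 in null, 0 with NT siRNA and 1 with H2A.Z siRNA, and the promoter median from WT to null was −11.3 over 2 genes. The loci held 10, 16, 20 and 13 peaks in the same order. All lists called 6 sites, with medians of 11.6 from WT to null and −26.9 from null to NT siRNA. The classes held 6 in null and not WT, 0 in WT and not null, 8 after NT siRNA and not null, 4 in null and not after NT siRNA, 2 after H2A.Z and not NT siRNA and 9 the reverse. Loci of 20 kb held 57, 53, 63 and 71 peaks and 49 sites in all lists, with classes of 2, 5, 9, 0, 12 and 1 in the same order. Loci of 100 kb held 172, 175, 233 and 279 peaks and 144 sites in all lists, with classes of 22, 19, 59, 6, 62 and 4, and medians of 0.0485 from WT to null and 0.212 from null to NT siRNA.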
